A study of Mus musculus with 203 samples.

Results

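Single neurons of the mouse nucleus ambiguus (Amb) that were labeled from the heart, the AmbCardiac neurons, were divided by their number of reads of *Apoe*, a gene that glial cells express strongly. Neurons with more than 1800 raw *Apoe* reads were 39 in number, 25.8% of the AmbCardiac neurons (11 of 53 of the ACP type and 28 of 98 of the ACV type), and the other 42 ACP and 70 ACV neurons had at most that number. The division rests on a value measured in the same cells, so the *Apoe* values are a description of the choice and carry no test. The questions were which cell types the additional RNA belongs to and whether neuronal transcripts are lower in the same neurons.

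All neurons came from wild-type C57BL/6 mice (C57BL/6NCrl in the study's methods) that received a fluorescent cholera toxin B tracer at postnatal day 1, in the pericardial space for heart labeling or in the cricothyroid muscle of the larynx for the AmbLaryngeal neurons. Labeled cell bodies were aspirated at postnatal days 2 to 4 from acute brainstem slices under a fluorescence microscope and sequenced by Smart-seq2, in which the full-length cDNA of a single cell is amplified by PCR. The deposited annotation places 53 AmbCardiac neurons in the ACP type (ambiguus cardiopulmonary) and 98 in the ACV type (ambiguus cardiovascular), clustered from the same counts, and the series also holds 52 AmbLaryngeal neurons, each neuron being 1 library. The mouse and plate of a neuron are not in the labels, so each group counts as 1 sample, values are given without p-values, and an SD is the spread over the neurons of a group and not an error between mice.

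*Apoe* encodes apolipoprotein E, the main lipid carrier that cells of the brain secrete. Astrocytes make most of it, microglia also express it, and resting neurons make little. Astrocytes wrap neuronal cell bodies and synapses, microglia are the resident macrophages that clear debris and prune synapses, and oligodendrocytes with their precursors supply myelin. By what route reads of glial genes entered these libraries was not tested.

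Library depth was similar in the groups by total count and lower above the limit without ribosomal RNA. The total count was 943956 to 3175434 with a median of 1907814 above the limit, against 840315 to 3116633 with a median of 1850740 at or below the limit. *Rn45s*, the precursor of ribosomal RNA, took a median of 42% of counts above the limit against 33.6%. Without it the median totals were 978674 and 1181736, and all levels given are counts per 1000000 of that total (CPM). A median of 8148 genes had a read above the limit and 7610 at or below it, and after each neuron was thinned to 313668 reads the medians were 7661 and 7132.

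*Apoe* lies on chromosome 7 from 19696109 to 19699188 on the minus strand of GRCm38 (mm10). Its raw count above the limit ran from 1830 to 45046 with a median of 2909, and at or below the limit from 0 to 1776 with a median of 750. The 5 counts just inside the limit were 1830, 1851, 1918, 1940 and 1955, and the 5 just outside were 1776, 1768, 1723, 1715 and 1680. No gap in the counts marks the limit.

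A limit on raw reads is not the same as a limit on the level. In CPM, *Apoe* was 963 to 30238 with a median of 3029 above the limit, and 0 to 4472 with a median of 631 at or below it. The groups overlapped on this scale. Of the neurons at or below the limit, 28 (25%) had a level over the lowest one above it, and 31 of the 39 neurons above (79.5%) were also among the 39 with the highest level. *Apoe* was read in 97.3% of the neurons at or below the limit, so the division separates more from less *Apoe* and not presence from absence.

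**Figure D1:**
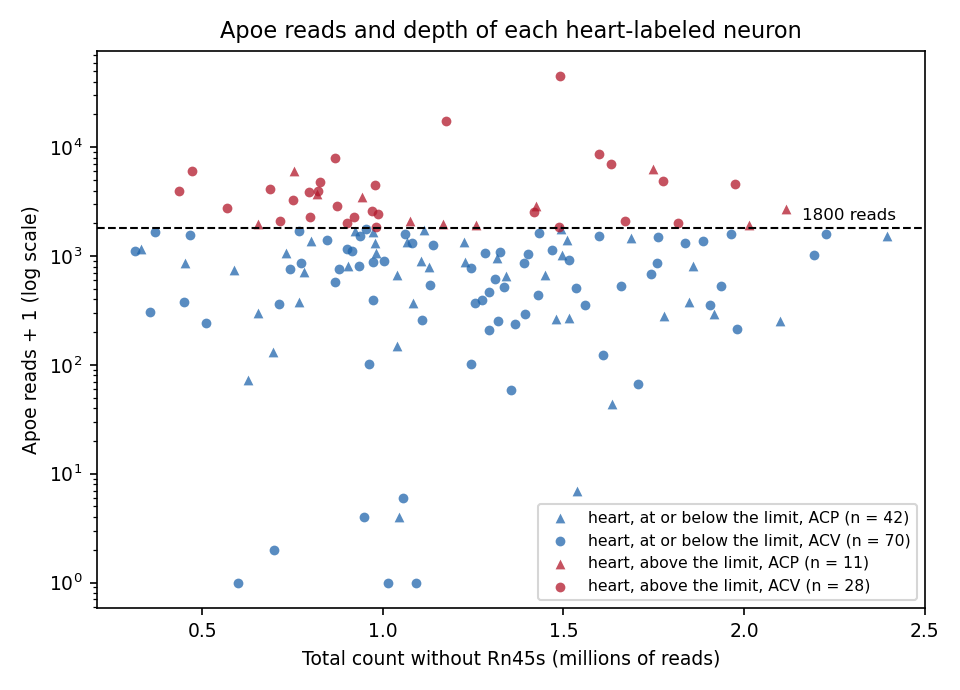
Raw Apoe reads plus 1 (log scale) against the total count without Rn45s in units of 1000000 reads, 1 symbol per AmbCardiac neuron (triangles ACP, circles ACV, red above the limit of 1800 reads, blue at or below it). Neurons above the limit occur at totals from 434618 to 2115350, and the counts nearest the limit are 1776 and 1830.

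Both cardiac types contributed to the 39 neurons. Of the ACP neurons 11 of 53 were above the limit (20.8%, exact 95% binomial interval 10.8 to 34.1%), and of the ACV neurons 28 of 98 (28.6%, 19.9 to 38.6%). These intervals overlap and, like all intervals here, cover counting error only. None of the 52 AmbLaryngeal neurons was above the limit, and 0 of 52 allows a share of up to 5.77% with 3 counts as the floor, or 6.85% as the upper exact 95% bound. Their totals were shallower, with a median of 560892 counts without *Rn45s*. Their *Apoe* level in CPM ran from 0 to 13925 with a median of 977, between the medians of the AmbCardiac groups.

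Over all genes the groups had nearly the same typical level. A gene was compared if its mean level over all AmbCardiac neurons was at least 5 CPM and at least 10% of them had a read, which 11047 genes passed. Ratios are of group means with 1 CPM added to each. The median log2 ratio was 0.008, with quartiles of -0.26 and 0.32. At least 2-fold higher above the limit were 576 genes (5.21%), and at least 2-fold lower were 290 (2.63%). Without the filter, 18786 genes had a read in a heart-labeled neuron, of which 1421 (7.56%) were at least 2-fold higher and 771 (4.10%) at least 2-fold lower. Every count of list members is read against these shares.

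Many of these differences rested on a minority of neurons. Of the 576 higher genes 323 had a median of 0 in both groups, and of the 290 lower genes 235. A mean of at least 5 CPM at or below the limit was found for 424 of the 576, so most of the higher genes were also read in neurons that had less *Apoe*.

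Of the lists, microglial genes had the largest ratios. The list held 17 genes that mark microglia, of which 15 passed the filter. All 15 of those were at least 2-fold higher above the limit, as were the 2 that did not pass. The filter used the mean over both groups. *Csf1r* and *Cx3cr1*, for example, had means of 4.87 and 3.67 CPM at or below the limit and passed through the neurons above it. The count of 15 is thus a description. Over both types together the median log2 ratio of the 17 genes was 3.72 and the range was 1.27 to 4.62. The summed level of the list was 0 to 12629 CPM above the limit, with a median of 280 and a mean of 1719 ± 2988 (SD, n = 39). At or below the limit it was 0 to 1130, with a median of 98.3 and a mean of 160.7 ± 205 (SD). The means differed 10.7-fold and the medians 2.85-fold.

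A few neurons carried most of the microglial reads. The 10 neurons with the highest sums held 88.7% of the summed level of the 39, against 65.5% in the 29 highest of the others, and each of the 10 exceeded every neuron at or below the limit. The tenth had 1561 CPM and the next 836. The highest neuron alone held 18.8%, and without it the means still differed 8.91-fold. A neuron above the limit had a read of a median of 8 of the 17 microglial genes, against a median of 2 at or below it, and at least 10 of the genes were read in 12 of the 39 and in 9 of the others.

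The complement genes *C1qa*, *C1qb* and *C1qc* encode the chains of C1q, which starts the classical complement cascade and tags synapses for removal by microglia. They lie side by side on the minus strand of chromosome 4, *C1qb* from 136880129 to 136886187, *C1qc* from 136889804 to 136893065 and *C1qa* from 136895917 to 136898803. Of these, *C1qb* was 0 to 2448 CPM above the limit with a median of 54.4 and was read in 27 of 39 neurons (69.2%, 52.4 to 83%). At or below the limit it was 0 to 372 with a median of 0 and was read in 36 neurons (32.1%). The log2 ratio of the means, 291 and 17.7, was 3.96, and 8 neurons above the limit exceeded the highest neuron at or below it. *C1qa* and *C1qc* had log2 ratios of 3.95 and 3.85 and were read in 23 and 21 of the 39 neurons.

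Receptors by which microglia receive signals showed ratios of similar size with fewer positive neurons. *Csf1r*, the receptor for the growth factors on which microglia depend, had a mean of 123.1 CPM above and 4.87 at or below the limit, a log2 ratio of 4.40. It was read in 17 of 39 neurons (43.6%) against 10 of the others (8.93%), and its median was 0 in both groups. *Cx3cr1*, the receptor for the neuronal chemokine fractalkine, had a log2 ratio of 4.50 and was read in 16 of the 39. *P2ry12*, a receptor for nucleotides released by damaged cells that is typical of homeostatic microglia, had 3.65 and was read in 14. *Csf1r*, *Cx3cr1* and *P2ry12* each share exon positions with a gene on the opposite strand (*Hmgxb3*, *Gm33858* and *Med12l*), and reads of such pairs cannot be told apart without strand.

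Enzymes and signaling adaptors of microglia were higher as well. *Ctss*, a lysosomal protease, had a mean of 149.1 against 10.4 CPM (log2 ratio 3.72), and *Cd68*, a lysosomal membrane protein of phagocytes, 46.7 against 2.39 (3.81). The lowest log2 ratios of the list were those of *Tmem119* (1.27) and *Aif1* (1.34). *Trem2*, a lipid-sensing receptor that binds APOE, and its adaptor *Tyrobp* had log2 ratios of 2.71 and 3.11. *Tmem119*, a marker particular to microglia, was read in 5 neurons above the limit and 9 of the others, with means of 8.08 and 2.76. Of the set *C1qa*, *C1qb*, *C1qc*, *Csf1r*, *Cx3cr1* and *P2ry12*, no read was found in 5 of the 39 neurons above the limit and in 52 of those at or below it.

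Genes of the microglia that gather along axon tracts in the early postnatal brain divided. The mean summed level of this list was 1161 ± 1441 (SD, n = 39) against 555 ± 270 (SD) CPM, a 2.09-fold difference, and 5 of its 10 members passed the filter, 2 of them at least 2-fold higher. *Spp1*, which encodes osteopontin, was 0 to 6453 CPM above the limit and 0 to 320 at or below it, with means of 323 and 9.65 and a log2 ratio of 4.93. A single neuron held 51.2% of the *Spp1* sum above the limit, and without it the ratio of the means was 16.8, not 33.5. *Lpl*, a lipoprotein lipase, had a log2 ratio of 3.19. *Fabp5*, *Cd63* and *Igf1*, which neurons or other cells also express, had 0.42, 0.71 and 0.44 and supplied much of the sum in both groups. *Gpnmb*, *Clec7a*, *Itgax* and *Cst7*, which mark the activated state, were read in at most 2 of the 39 neurons.

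The border macrophages of the meninges and vessels share many genes with microglia. None of their 7 listed genes passed the filter, and the summed means were 25.5 and 12.4 CPM, a ratio of 2.06 that was 1.29 without the highest neuron. *Mrc1*, a mannose receptor, had 12.5 against 1.70 CPM, but 1 neuron held 72.4% of its sum.

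Astrocyte genes were higher in more of the neurons and by smaller factors. Of 21 genes 19 passed the filter, and 16 of the 19 were at least 2-fold higher above the limit and none at least 2-fold lower. Over both types together all 21 had a log2 ratio above 0, with a median of 1.40 and a range of 0.43 to 2.60. The summed level was 1255 to 11049 CPM above the limit, with a median of 3446 and a mean of 4124 ± 2464 (SD, n = 39), and 124.8 to 8281 at or below it, with a median of 1502 and a mean of 1709 ± 1197 (SD). The ratio of the medians, 2.29, was close to that of the means, 2.41. The 10 neurons with the highest astrocyte sums held 47.1% of the summed level, while the 29 highest at or below the limit held 47.2%.

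Transporters that astrocytes use to clear glutamate and move ions and water were prominent. *Slc1a3* (GLAST), a glutamate transporter on chromosome 15 from 8634124 to 8710764, was 0 to 1160 CPM above the limit with a median of 180, and 0 to 663 at or below it with a median of 19.5. It was read in 92.3% of the neurons above the limit and 67.9% of the others, and its log2 ratio was 2.33. *Mlc1*, a membrane protein of astrocyte endfeet, had the highest ratio of the list (2.60, means of 124.7 and 19.7). *Aqp4*, the water channel of the endfeet, had 2.26 and *Slc4a4*, a bicarbonate transporter, 2.11. *Slc1a2* (GLT-1), the other glial glutamate transporter, was under 2-fold (0.95).

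Cell contact, filament and metabolic genes of astrocytes varied more. *Gja1*, which encodes the gap junction protein connexin 43, had a log2 ratio of 1.81, *Agt*, the precursor of angiotensin, 2.02, and *Fabp7*, a fatty acid binding protein of radial glia and young astrocytes, 1.69 with means of 1180 and 365 CPM. *Aldh1l1*, a folate enzyme, had 1.34 and the transcription factor *Sox9* 1.13. *Gfap*, the intermediate filament of reactive astrocytes, had 2.17, but 1 neuron held 48.8% of its sum and the median was 1.76 CPM above the limit and 0 at or below it. *Aldoc*, an aldolase, was read in all 39 neurons and in 99.1% of the others and differed little (medians of 1058 and 800, log2 ratio 0.50).

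**Figure D2:**
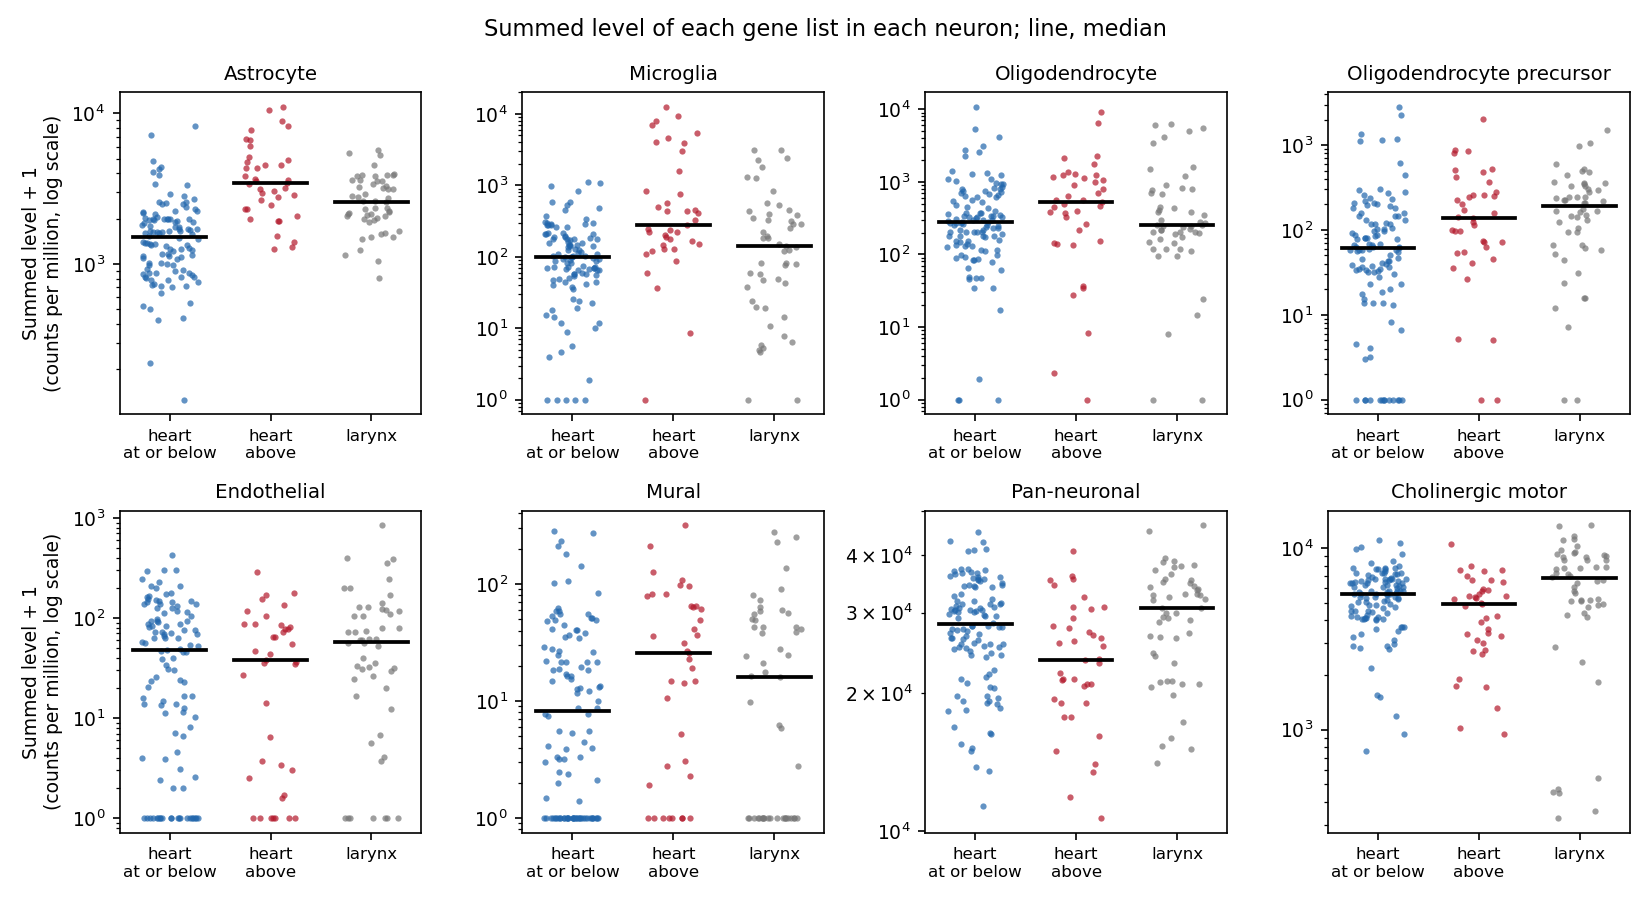
Summed level of 8 gene lists in each neuron (CPM plus 1, log scale), with the 42 ACP and 70 ACV neurons at or below the limit in blue, 39 above it in red and 52 AmbLaryngeal neurons in gray; horizontal lines are medians. Astrocyte and microglial sums have higher medians in red (3446 and 280 CPM) than in blue (1502 and 98.3), and the pan-neuronal median is lower (23592 and 28317).

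With both types pooled, genes of the oligodendrocyte lineage showed smaller differences than astrocyte genes. In ACV neurons the oligodendrocyte and precursor sums differed 2.46-fold and 2.60-fold, against 2.59-fold for astrocyte genes. The ratios in ACP neurons were 0.908 and 0.903, against 2.03. The values that follow are over both types. The summed mature oligodendrocyte level was 0 to 9196 CPM above the limit with a median of 521, and 0 to 10849 at or below it with a median of 275, so the highest neuron was below the limit. Of 14 genes 7 passed the filter, and *Mbp*, a structural protein of myelin, was the single one of these at least 2-fold higher (log2 ratio 1.02, means of 525 and 259). One neuron held 31.2% of the *Mbp* sum, and the ratio of the means was 1.43 without it. *Cnp*, a myelin enzyme, had 0.19. *Mog*, *Mag*, *Opalin* and *Ermn*, which belong to compact or late myelin, had a summed mean of 11.4 CPM above and 9.37 at or below the limit.

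Oligodendrocyte precursor genes varied in direction when both types were pooled. The summed level was 0 to 2025 CPM above the limit and 0 to 2836 at or below it, with medians of 138.2 and 59.4. Of the 8 genes that passed the filter *Olig2*, a transcription factor of the lineage, was at least 2-fold higher (1.57) and *Matn4*, a matrix protein, at least 2-fold lower (-1.16). *Olig1*, the partner of *Olig2*, had 0.99, *Pdgfra*, the receptor that defines precursors, -0.55, and *Cspg4*, which encodes the NG2 proteoglycan, 0.55. By type, 5 of the same 8 genes were at least 2-fold higher and 0 lower in ACV neurons. In ACP neurons 1 was higher and 4 were lower.

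Genes of vessels, connective tissue and nerve sheaths had low levels in both groups. The endothelial list of 12 genes had summed means of 55.4 and 69.2 CPM, and its defining genes *Cldn5*, *Pecam1*, *Flt1* and *Cdh5* summed to means of 5.02 and 4.52. The mural list, for pericytes and smooth muscle, had 45.7 and 27 with medians of 24.6 and 7.24, with 1 of 10 genes passing the filter, *Vtn* (0.79), and *Abcc9* was read in none of the 39 neurons. The fibroblast list had 88.9 and 57.9, and without the highest neuron the ratio was 1.03. The Schwann cell list had 33.6 and 48.6, nearly all of it *Pmp22*, which other cells express, while *Cdh19* and *Foxd3* are listed at 0 in all 39 neurons. The 4 ependymal genes summed to 11.3 and 3.95 CPM, and none passed the filter. One neuron held 40.8% of the ependymal sum, and without it the ratio was 1.74, not 2.87. *Hba-a1*, *Hba-a2*, *Hbb-bs* and *Hbb-bt* are listed at 0 in every AmbCardiac neuron.

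**Figure D3:**
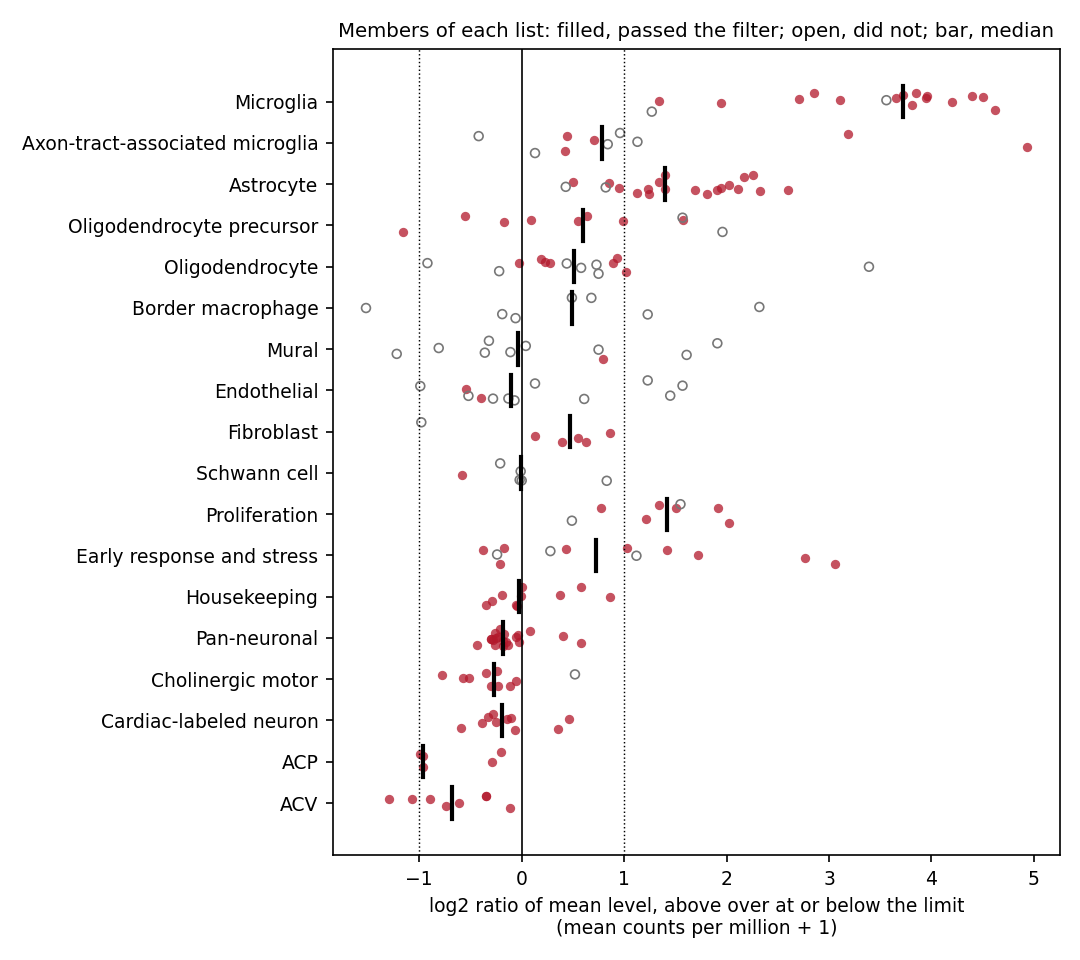
Log2 ratio of the mean level above over at or below the limit for each member of 18 gene lists, 1 point per gene, filled where it passed the filter on low values, with black bars at list medians and dotted lines at 2-fold. The medians are 3.72 for microglia and 1.40 for astrocytes, and -0.18 for the pan-neuronal list, which has no member past 2-fold.

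The 39 neurons did not all have the same lists raised. A neuron was counted for a list if its sum exceeded the 90th percentile of the neurons at or below the limit. By this measure 27 of 39 were high for astrocyte genes (69.2%, 52.4 to 83%), 19 for microglial genes (48.7%, 32.4 to 65.2%), 11 for oligodendrocyte genes and 10 for precursor genes. The list of axon-tract-associated microglia had 19, the mural list 13, the border macrophage, fibroblast and housekeeping lists 9 each, and the endothelial list 3. Both astrocyte and microglial sums were high in 13 neurons, the astrocyte sum without the microglial in 14, the microglial without the astrocyte in 6, and neither in 6. Oligodendrocyte or precursor sums were high in 15 neurons, 14 of which were also high for astrocytes or microglia. In 5 neurons none of the 4 glial lists was high, and in 4 neurons all were.

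The single neurons with the most *Apoe* differed in composition. The neuron with 30238 CPM had an astrocyte sum of 1926, under the median of 3446 of the neurons above the limit, and a microglial sum of 9302. The next, with 14865, had 8173 and 5448. The neuron with 12817 had 2759 and the highest microglial sum, 12629, and the one with 9134 had 10559 and 403. All 4 were ACV neurons, and their pan-neuronal sums of 14014 to 19019 were under the median of 28317 at or below the limit.

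**Figure D4:**
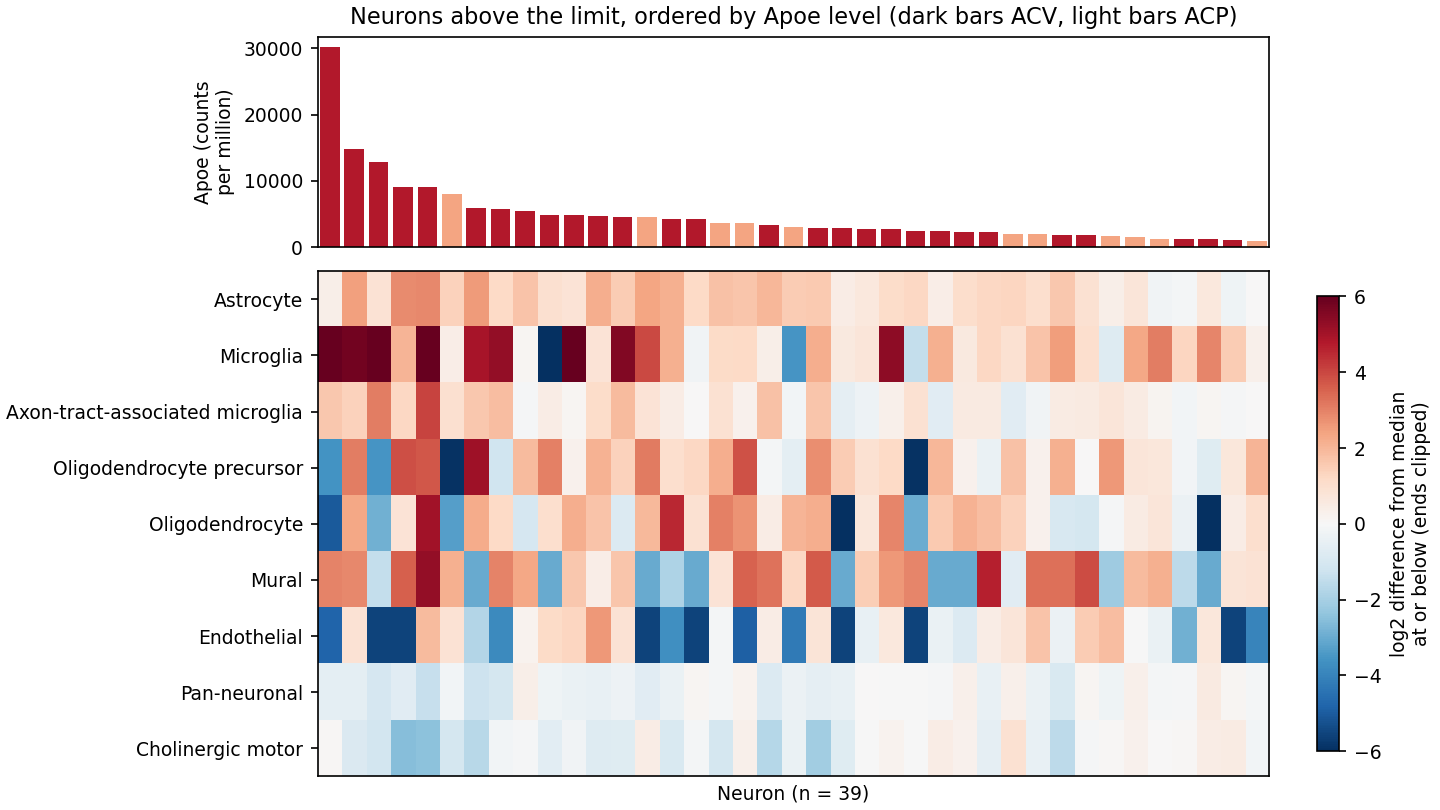
Top, Apoe level in CPM of the 39 neurons above the limit in descending order, as dark bars for ACV and light bars for ACP. Bottom, the log2 difference of each neuron's list sum from the median of the neurons at or below the limit, each with 1 CPM added (red higher, blue lower, ends of the scale clipped). Astrocyte sums are red in most columns, microglial sums are dark in few, and pan-neuronal sums are pale blue in most.

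The *Apoe* level was compared with the summed levels of the glial lists. Across all AmbCardiac neurons the Spearman correlation of the *Apoe* level with the summed astrocyte level was 0.80 and with the microglial level 0.56. Across the 39 the values were 0.58 and 0.30, and across the others they were 0.68 and 0.46. For the list of axon-tract-associated microglia the values were 0.46 across all, 0.58 across the 39, as for astrocytes, and 0.27 across the others. The astrocyte and microglial sums correlated at 0.50 across all of them and at 0.08 across the 39. These points share the total by which each neuron was scaled, and neurons of the same mouse cannot be identified.

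In reads, the difference between the group means was 2414 CPM for the astrocyte list, 1558 for the microglial list, 606 for the axon-tract-associated list, 407 for the oligodendrocyte list and 93.6 for the precursor list. Counts were not scaled by transcript length and lists differ in size, so these values do not rank the types by molecules of RNA. *Apoe* with the genes of all non-neuronal lists took 0.364 to 4.76% of a neuron's counts above the limit with a mean of 1.33%, and 0.106 to 1.77% at or below it with a mean of 0.420%. In AmbLaryngeal neurons the mean was 0.726%. These shares include *Apoe*, which was used for the choice and alone had means of 4733 CPM above and 764.5 CPM at or below the limit. Part of the difference in share between the AmbCardiac groups was thus set by the choice.

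Other genes of lipid transport differed in size and sign. Over both types together, 5 of 13 members that passed the filter were at least 2-fold higher. *Apoe* itself was among them and was used for the choice. In ACV neurons 6 were at least 2-fold higher and 1 lower, and in ACP neurons 2 and 1, with *Apoe* included. The ratios that follow are over both types. *Lcat*, which esterifies cholesterol on lipoprotein particles, had a log2 ratio of 2.52, *Soat1*, which esterifies it inside cells, 2.01, and *Abca1*, which loads lipid on to APOE, 1.64. *Mylip*, a ligase that degrades lipoprotein receptors, had 1.03. *Clu*, another secreted apolipoprotein, had 0.42, and the neuronal receptor *Lrp1* 0.18. *Cyp46a1*, the neuronal enzyme of cholesterol turnover, had -0.42.

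With both types pooled, neuronal genes were lower by a small amount. By type, the mean pan-neuronal sum differed by -24.2% in ACV and by 9.67% in ACP neurons. All 20 pan-neuronal genes passed the filter and none differed 2-fold. Their log2 ratio was under 0 for 17 of 20, with a median of -0.18 and a range of -0.44 to 0.58, where the median over all genes was 0.008. The summed level was 10689 to 40776 CPM above the limit with a median of 23592, and 11356 to 45020 at or below it with a median of 28317. The mean was 24186 ± 7204 (SD, n = 39) against 28249 ± 7135 (SD), a difference of -14.4% and less than the spread over neurons. Of the 39 neurons 29 had a sum under the median of the others, and 8 were under their 10th percentile.

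*Tubb3*, a neuronal tubulin, was 630 to 7156 CPM above the limit with a median of 3635, and 1433 to 8098 at or below it with a median of 4633 (log2 ratio -0.30). *Snap25*, a SNARE protein of synaptic vesicle fusion, had medians of 1255 and 1477 (-0.18), and *Nefl*, the light neurofilament chain, 5282 and 6976 (-0.21). *Nefl* shares exon positions with *Nefm* of the same list on the opposite strand. *Eno2*, the neuronal enolase, was lowest with -0.44. *Map2*, a microtubule protein of dendrites, and *Rbfox3*, which encodes NeuN, were the other way, at 0.40 and 0.58. *Snap25*, *Tubb3* and *Slc18a3* were all read in each of the 39 neurons.

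With both types pooled, the cholinergic motor genes, by which these preganglionic neurons make and load acetylcholine, were lower by a like amount. By type, their mean sum differed by -29.1% in ACV and by 18.8% in ACP neurons. The summed level was 941 to 10565 CPM above the limit with a median of 4933, and 760 to 11052 at or below it with a median of 5592. Group means of 4649 ± 2197 (SD, n = 39) and 5535 ± 1939 (SD) were closer together than the spread, and 26 of the 39 neurons were under the median of the others. Of the 10 genes 9 passed the filter. The log2 ratio was under 0 for 9 of the 10 and over 0 for 1, with a median of -0.27 and a range of -0.78 to 0.52. *Slc18a3*, the vesicular acetylcholine transporter, had a log2 ratio of -0.30, *Chat*, which makes acetylcholine, -0.57, and *Slc5a7*, the choline transporter, -0.11. The transcription factors *Isl1* and *Tbx20* had -0.51 and -0.78, neither past 2-fold.

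The 10 genes listed for heart-labeled neurons, among them *Tbx3*, *Cntn5* and *Cnr1*, summed to means of 1583 and 1786 CPM, and none was past 2-fold. That list was chosen on these same neurons, as were those of the types. The ACV marker list had 302 and 583, and its members *Hoxa5*, a positional transcription factor, and *Htr3b*, a serotonin receptor subunit, were at least 2-fold lower (-1.30 and -1.07). The ACP marker list had means of 210 and 317 but medians of 84.5 and 61.4, with means of 69.9 and 49.2 in ACV neurons and 567 and 762 in ACP neurons. The ACV share was 71.8% of the neurons above the limit and 62.5% of those at or below it, and within ACV neurons the ACV list had means of 410 and 907 CPM. Genes of other transmitter types summed to 142.2 and 162.1 CPM, and of the 5 that passed, *Slc6a5*, a glycine transporter, was at least 2-fold lower (-2.01).

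Housekeeping genes were listed as a reference. Their summed means were 8483 and 7896 CPM, and none of 10 genes differed 2-fold (*Gapdh* -0.06, *Rplp0* 0.58, *Tfrc* 0.86). Over both types, proliferation genes had higher levels, with 5 of 6 that passed at least 2-fold higher and summed means of 158.7 and 57.5 CPM. By type this held in ACV neurons, where 6 of 6 were at least 2-fold higher (sums of 202.1 and 51.6), and not in ACP neurons, where 0 of 6 were higher and 2 lower (48.3 and 67.4). *Mki67*, a nuclear protein of cycling cells, was read in 12 neurons above the limit and 21 of the others. Of 9 early response and stress genes that passed, 5 were at least 2-fold higher, with *Junb* at 3.06, *Fos* at 1.42 and *Egr1* at 1.03. *Atf3* had 2.77 and *Arc* 1.72, but 1 neuron held 66.4% of the *Atf3* sum and 1 held 77.8% of the *Arc* sum, and *Dusp1* (-0.17) and *Hspa1a* (-0.38) were slightly lower. *Junb* shares exon positions with *Prdx2* on the opposite strand.

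The comparison was repeated within each cardiac type. In ACV neurons, 28 above and 70 at or below the limit, the microglial sum differed 14.9-fold, with means of 2246 ± 3387 and 150.5 ± 168.6 (SD) CPM. In ACP neurons, 11 and 42, it differed 2.13-fold, with 378 ± 456 and 177.6 ± 255 (SD), and 1.46-fold without the highest neuron. Of the 10 neurons above every microglial sum at or below the limit 9 were ACV. The astrocyte sum differed 2.59-fold in ACV and 2.03-fold in ACP neurons. The list members counted next passed the filter over all AmbCardiac neurons, not within the type. In ACV neurons 17 of 19 astrocyte and 14 of 15 microglial genes that passed were at least 2-fold higher, and none was lower. In ACP neurons 8 of 19 and 9 of 15 were higher, and 1 astrocyte and 2 microglial genes were at least 2-fold lower. Over all genes, filtered within the type, 975 of 10974 were higher and 418 lower in ACV neurons. In ACP neurons 750 of 10973 were higher and 1487 lower. *Apoe* itself had medians of 3779 and 2044 CPM in the ACV and ACP neurons above the limit, so the types were not matched in *Apoe* and their difference was not tested.

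Neuronal genes were lower in one type and not the other. In ACV neurons the pan-neuronal sum had a median of 21426 CPM above and 30863 at or below the limit (means of 23298 ± 7670 and 30730 ± 6899, SD). In ACP neurons the medians were 25698 and 25293 (means of 26448 ± 5526 and 24115 ± 5451, SD). The cholinergic sum had medians of 4349 and 6039 in ACV neurons and 5608 and 4589 in ACP neurons. For both lists the log2 ratio of the means was under 0 in ACV (-0.40 and -0.50) and over 0 in ACP neurons (0.13 and 0.25). The oligodendrocyte, precursor, mural and proliferation sums had log2 ratios over 0 in ACV (1.30, 1.37, 1.11 and 1.95) and under 0 in ACP neurons (-0.14, -0.15, -0.13 and -0.47). The signs also differed between the types for the border macrophage, fibroblast, ependymal, endothelial, erythroid, ACP, heart-labeled and other-neuron lists.

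**Figure D5:**
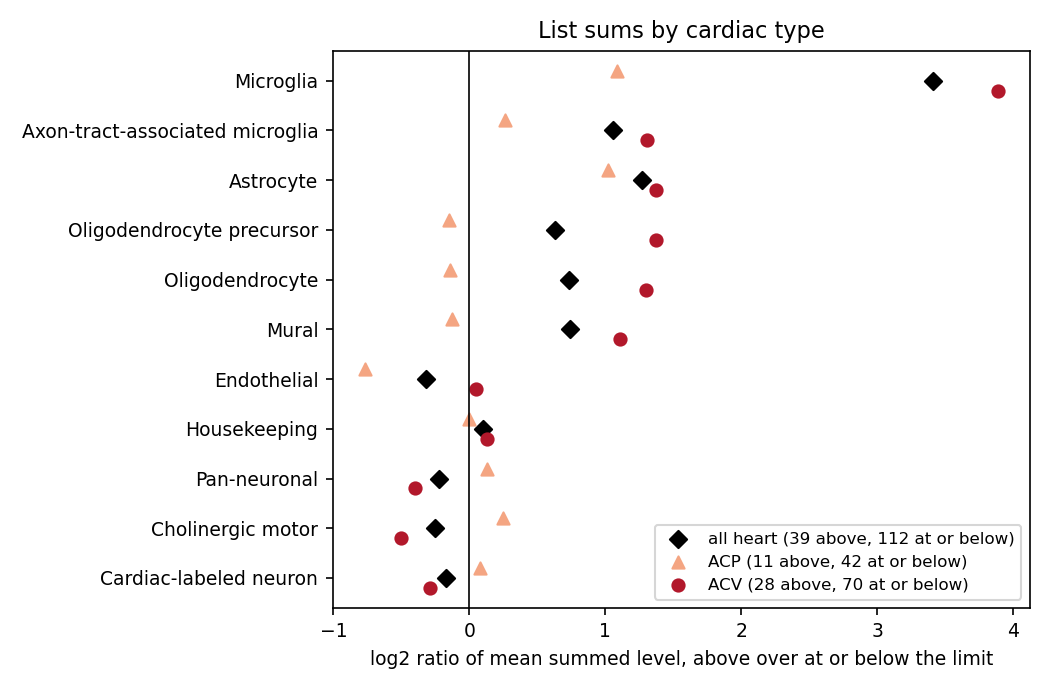
Log2 ratio of the mean summed level of 11 gene lists, above over at or below the limit, for all AmbCardiac neurons (black), ACP (light triangles, 11 above and 42 at or below) and ACV (dark circles, 28 and 70). Pan-neuronal and cholinergic values are left of 0 in ACV (-0.40 and -0.50) and right of 0 in ACP (0.13 and 0.25), and the microglial value is 3.89 in ACV and 1.09 in ACP.

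The Spearman correlation of the *Apoe* level with the pan-neuronal sum was -0.55 across the 39 neurons above the limit and with the cholinergic sum -0.53, against -0.28 and -0.25 across the neurons at or below the limit. The 39 mix the types. Above the limit, ACV and ACP neurons had *Apoe* medians of 3779 and 2044 CPM and pan-neuronal medians of 21426 and 25698. Correlations within a type were not computed. The shared total ties such sums together, since more reads of one gene leave fewer for another. The 20 pan-neuronal and 10 cholinergic genes took a mean of 2.88% of counts above the limit and 3.38% at or below it. With totals that left out all non-neuronal list genes, the pan-neuronal log2 ratio was -0.21, against -0.22 with them. Those genes with *Apoe* took a mean of 1.33% of counts above the limit and 0.420% at or below it. Leaving them out could therefore move the value little, and non-neuronal genes outside the lists stayed in the totals. Whether the shared total accounts for the lower neuronal sums was not tested.

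Without regard to lists, genes were ranked by ratio among those read in at least 25% of the neurons of the group where they were higher. This choice favors genes that differ, so the ranks are a description only. The 15 with the largest ratio above the limit were *Spp1*, *Fcrls*, *Cx3cr1*, *Csf1r*, *Ccl12*, *Ly86*, *C1qb*, *C1qa*, *Ccl3*, *C1qc*, *Irf8*, *Cd68*, *Ctss*, *P2ry12* and *Unc93b1*. The chemokine gene *Ccl3* had means of 28.9 and 0.960 CPM and *Ccl12* of 28.2 and 0.484, *Irf8*, a transcription factor of myeloid cells, of 43.4 and 2.11, and *Unc93b1*, which carries Toll-like receptors to endosomes, of 34 and 1.97. A single neuron held 79.3% of the *Ccl12* sum, 60.8% of the *Irf8* sum and 50.5% of the *Ccl3* sum.

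In the other direction the 15 had to be read in at least 25% of the neurons at or below the limit. *Esyt3*, a membrane contact site protein whose gene overlaps *Gm37249*, had means of 1.8 above and 17.9 at or below the limit (log2 ratio -2.75), and *Cckbr*, a cholecystokinin receptor, 2.88 and 18 (-2.29). *Cdr2*, *Tmem87a*, *Mmp11*, *Grip2*, *BC020402*, *Lmbr1l*, *Adgrg2*, *Best1*, *Dnajc28*, *Wdhd1*, *Atxn1l*, *9230110C19Rik* and *Kdm1b* completed the set, down to -1.72. All 15 had a median of 0 in both groups.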

How the data were processed

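Single neurons were profiled by Smart-seq2 with paired-end reads. The authors trimmed reads with Skewer and aligned them to mm10 with STAR 2.6.1d; the counting tool and annotation are not given in the sources used here. They deposited raw counts per gene, used here for 24029 genes, and left components with glial genes out of their clustering. The stated quality limit would have removed neurons above 1800 *Apoe* reads, but the deposited counts hold 39 of them, which carry cluster names. A second deposited table named CPM was not used, since 4 of its columns sum to 1000000 within 1%.

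Levels are counts per 1000000 (CPM) of the total without *Rn45s*. Group means were compared with 1 added, after a filter on a mean of 5 CPM and a read in 10% of AmbCardiac neurons. Members and lists were chosen with earlier results of these data known. Text names at most 6 defining or highest genes a list, with others where a list varied, and the 15 largest ratios each way among genes read in 25% of the neurons of the group where they are higher. The genes past that limit of 6 were chosen after their values were seen. No test was run, since mice and plates are not in the labels and the groups were cut on a measured value. Shares carry exact 95% Clopper-Pearson intervals, which cover counting error only, since PCR reads had no molecular identifiers. Neurons were picked singly, so no doublet caller was run. Reads carry no strand, and an overlap with a gene on the opposite strand is stated for only some of the genes that have one. The highest correlation of log levels between any 2 neurons was 0.931, so none was counted as a repeat. Positions are from GENCODE on GRCm38. Alternatives used edgeR 4.0.16 and DESeq2 1.42.0 for size factors only, in R 4.3.3, and all else Python 3.11.15 with pandas 2.3.3 and scipy 1.17.1. The code was tested on simulated data. Some list members are not reported here by name.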

Additional observations from a re-analysis of the deposited data

How the results depend on the processing

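Values are log2 ratios of mean sums unless counts are named. All but 27 repeats stayed within 1.5-fold of the value given, and for these 27 the cause was not tested. Some of the repeats used fewer neurons or genes. The 576 higher genes became 315 with totals that include *Rn45s*, 375 without scaling, 1266 by medians, 991 for the neurons of highest *Apoe* CPM, 975 in ACV neurons, 1421 without the filter, 180 at a mean of at least 20 and 227 with 10 added. The 290 lower genes became 622 when scaled to housekeeping genes, 641 by medians, 1356 at a limit of 3600 reads, 1487 in ACP neurons, 771 without the filter, 66 at a mean of at least 20 and 23 with 10 added. The share of calls that were higher was 66.5%, and 43.9% scaled to housekeeping genes (median of all genes -0.12), 37.7% at the limit of 3600, 33.5% in ACP neurons and 90.8% with 10 added.

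The precursor value of 0.63 became 1.38 and 1.33 at limits of 900 and 3600 reads (81 and 17 neurons above), 1.73 for the highest *Apoe* CPM, -0.15 in ACP and 1.37 in ACV neurons. The oligodendrocyte value of 0.73 became -0.14 in ACP neurons. The microglial value of 3.41 became 1.5 by medians and 1.09 in ACP neurons, and the axon-tract value of 1.06 became 0.26 in ACP neurons. The mural value of 0.74 became 1.64 by medians, 1.71 for the highest *Apoe* CPM and -0.13 in ACP neurons. Astrocyte values stayed between 1.02 and 1.56. Pan-neuronal values were -0.30 to -0.17 over the scalings, with 0.13 in ACP and -0.40 in ACV neurons. They were -0.15 and -0.31 at limits of 900 and 3600 reads, and -0.39 for the highest *Apoe* CPM.

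With each neuron above the limit left out in turn, the counts were 521 to 603 higher and 275 to 321 lower. The ranges were 1.20 to 1.30 for astrocytes, 0.35 to 0.67 for precursors, 0.39 to 0.77 for oligodendrocytes, 3.15 to 3.45 for microglia, 0.79 to 1.09 for axon-tract microglia, -0.48 to -0.28 for endothelium, 0.50 to 0.78 for mural cells, -0.25 to -0.20 for pan-neuronal and -0.30 to -0.22 for cholinergic genes. No paired analysis was possible because each neuron is 1 library and the result comes from no test.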
